A study of Mus musculus with 7 samples.

Results

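HGF and EGF family growth signals are a set of 10 genes for secreted growth factors and their receptor tyrosine kinases: Hgf with its receptor Met, the receptors Egfr, Erbb2 and Erbb3, and the ligands Egf, Btc, Areg, Ereg and Hbegf. The members were chosen by name as growth signals tied to beta cell expansion in pregnancy, and a probe set counted for a gene only where the array's annotation gave that symbol alone. On that rule 9 of the 10 members were measured, out of 19938 genes in all, and Areg was not analysed here. Each of the 9 had a single such probe set.

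Hepatocyte growth factor (HGF) is secreted mainly by mesenchymal and endothelial cells as an inactive precursor, is cut into its active form by serine proteases outside the cell, and signals through Met on epithelial and endocrine cells. EGF family ligands are made as membrane proteins and shed by ADAM metalloproteases. They bind Egfr, Erbb3 or Erbb4, while Erbb2 binds no ligand and serves as a partner, and Erbb3 signals mainly through a partner because its own kinase is weak. Both branches feed the RAS-ERK and PI3 kinase-AKT cascades. In mice, loss of Met in the pancreas and a dominant-negative Egfr in beta cells have each been linked to poorer growth of beta cells in pregnancy.

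The data are expression arrays of pancreatic islets taken on day 15 of pregnancy, with 1 array for the islets of each mouse. All mice were females of the C57BL/6 strain background from a prolactin receptor null line, set up for mating at 12 to 16 weeks of age. The control group was 3 wild type mice with both receptor alleles intact (PrlR+/+), and the other group was 4 mice heterozygous for the null allele (PrlR+/-), an allele carried by the whole animal and not by beta cells alone. Virgin mice and homozygous null mice were not analysed here, and the level of the targeted gene was not analysed here.

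Values are the authors' log2 array values, and a difference is PrlR+/- minus PrlR+/+ on that scale. Whole islets were measured, so fewer cells of a type and less RNA per cell cannot be told apart. Defining markers of the tissue were present: the mean of 9 beta cell markers lay between 11.92 and 12.21 over the 7 mice and that of 7 markers of other islet endocrine cells between 11.78 and 12.03. Acinar cells of the exocrine pancreas were present too, with a mean of 10 markers between 11.77 and 12.44. The arrays give no read depth, and the number of mice limits the precision.

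The comparison asked whether the transcripts of these growth signals differ when 1 allele of the prolactin receptor is missing in pregnancy. No member differed between the genotypes beyond the spread between mice. Of 9 members, 0 passed an adjusted p under 0.05 (limma, Benjamini-Hochberg over all 19938 genes), where 0% of all genes passed. At an unadjusted p under 0.05 the count was also 0 of 9, against 2.2% of all genes (438 genes, 213 of them higher and 225 lower in PrlR+/-). The genotypes overlapped for every measured member, against 2.24% of all genes without overlap. The mean was higher in PrlR+/- for 7 members and lower for 2, Egf and Hbegf, while 56.2% of all genes had a higher mean. The median difference of the members was 0.03, beside 0.01 for all genes.

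The intervals show how large a difference could have been missed on this scale. For 8 of 9 members the 95% interval of the difference lay within 1.5-fold in both directions, as it did for 89.9% of all genes. The exception was Hbegf, whose interval ran from -0.70 to 0.07. Of the measured members, 4 (Hgf, Erbb2, Btc and Ereg) lay below the 40th percentile of gene means. Signal above background was not given for these arrays, so the narrow intervals of such dim probe sets may not reflect transcript levels.

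**Figure D1:**
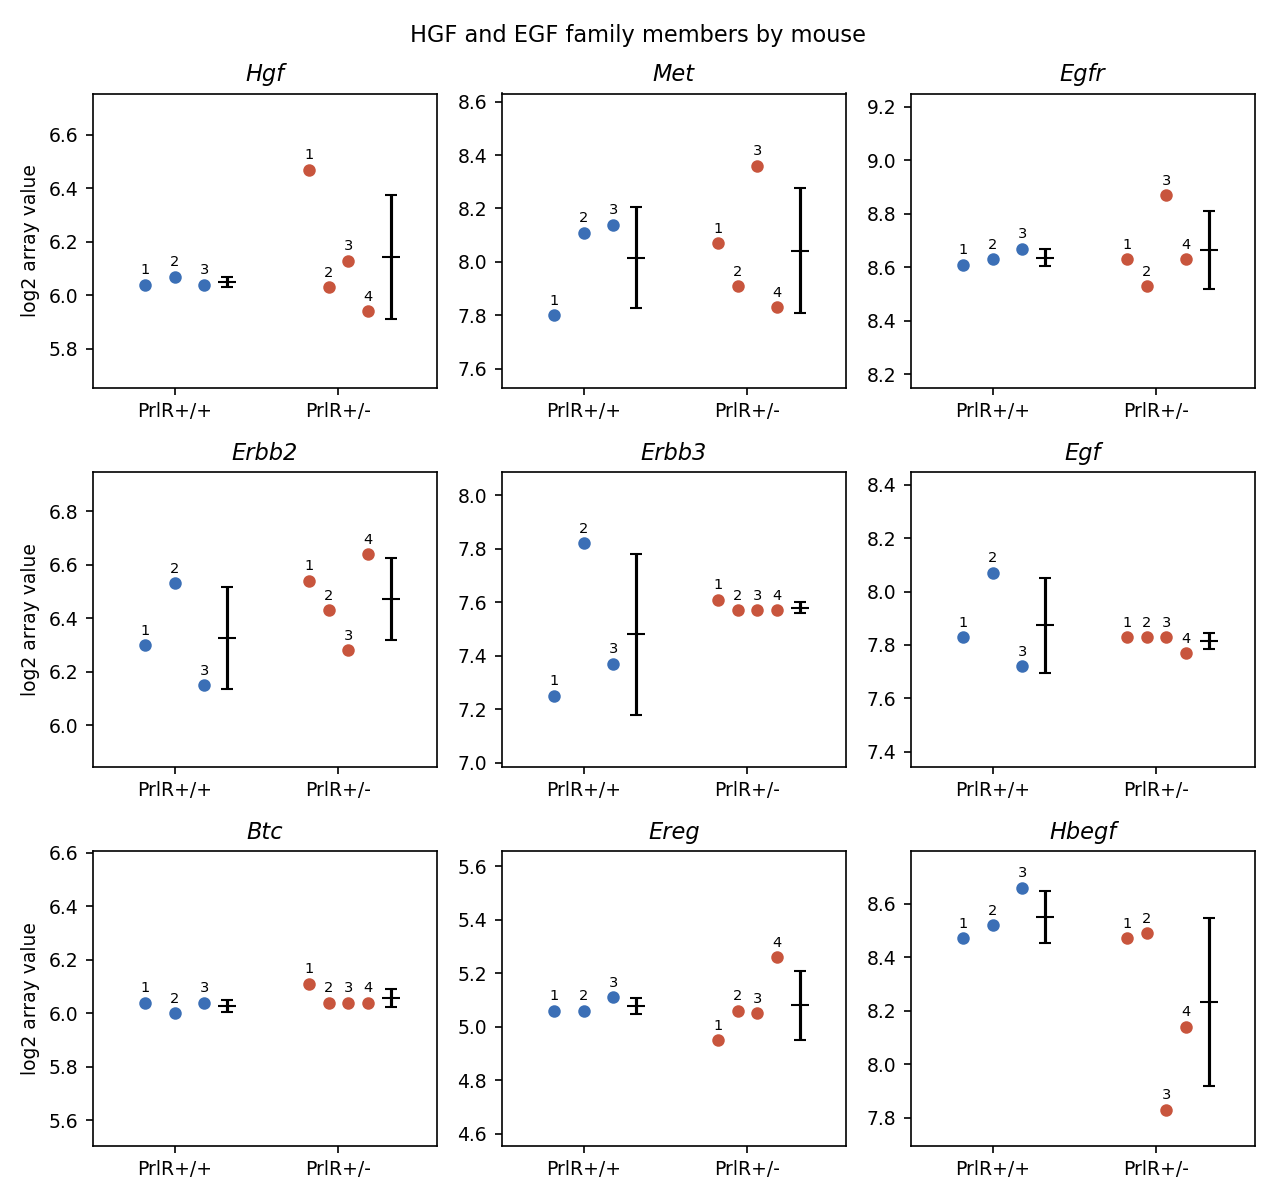
Log2 array value of each measured member (vertical axis) in islets of PrlR+/+ (blue, 3 mice) and PrlR+/- mice (red, 4 mice). Each point is a mouse, numbered as in the labels, the black mark is the group mean with its SD, and every panel spans the same log2 distance; the genotypes overlap in all 9 panels, and Hbegf has the widest range, 0.83.

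Hgf was steady in the control mice and spread more widely in the heterozygous mice. Its log2 value was 6.04, 6.07 and 6.04 in PrlR+/+ 1 to 3, and 6.47, 6.03, 6.13 and 5.94 across PrlR+/- 1 to 4. PrlR+/- 1 was the high mouse and PrlR+/- 4 the low one, so the heterozygous mice lay on both sides of the controls. The difference was 0.09 ± 0.12 (SE), with a 95% interval from -0.20 to 0.38 (limma, adjusted p = 0.99), and it was -0.02 without PrlR+/- 1. Markers of stellate cells and fibroblasts, which can make Hgf, had a mean over 11 genes of 7.54 in PrlR+/- 1. Only PrlR+/- 2 was higher (7.79). The mean of 10 endothelial markers was lowest in PrlR+/- 1 (9.37), against 9.38 to 9.72 in the others. The part of either cell type in the Hgf values was not tested.

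Met, the HGF receptor, read 7.80, 8.11 and 8.14 in PrlR+/+ 1 to 3, and 8.07, 7.91, 8.36 and 7.83 across PrlR+/- 1 to 4. The highest value was that of PrlR+/- 3 and the lowest that of PrlR+/+ 1, and the genotypes overlapped between 7.83 and 8.14. The heterozygous mean was 8.04 ± 0.23 (SD, n = 4) and the control mean 8.02 ± 0.19 (SD, n = 3). Their difference was 0.03 ± 0.14 (SE), with an interval from -0.31 to 0.37 (limma, adjusted p = 0.996). It was -0.08 without PrlR+/- 3 and also -0.08 without PrlR+/+ 1, so its sign rested on single mice.

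Egfr, which binds Egf, Btc, Areg, Ereg and Hbegf, had values of 8.61, 8.63 and 8.67 in PrlR+/+ 1 to 3, and of 8.63, 8.53, 8.87 and 8.63 across PrlR+/- 1 to 4. The controls sat close together, and PrlR+/- 3 was above all other mice while PrlR+/- 2 was below them. The difference was 0.03 ± 0.09 (SE), with an interval from -0.17 to 0.23 (limma, adjusted p = 0.99), and -0.04 without PrlR+/- 3. In fold terms the interval reached 1.17-fold higher and 1.13-fold lower in PrlR+/- islets.

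Erbb2, the receptor without a ligand, was measured at 6.30, 6.53 and 6.15 in PrlR+/+ 1 to 3, and at 6.54, 6.43, 6.28 and 6.64 across PrlR+/- 1 to 4. The highest mouse was PrlR+/- 4 and the lowest PrlR+/+ 3, with 5 mice between them mixed by genotype. The difference was 0.15 ± 0.12 (SE), with an interval from -0.13 to 0.42 (limma, adjusted p = 0.99). It was 0.06 without PrlR+/+ 3, 0.25 without PrlR+/+ 2 and 0.09 without PrlR+/- 4. With array weights it was 0.24 at an unadjusted p of 0.0377 by limma (adjusted p = 0.818), in a fit where 5.68% of all genes were under that level. A second probe set, annotated to both Erbb2 and Sympk and therefore left out, was also highest in PrlR+/- 4 (5.50) and lowest in PrlR+/+ 3 (5.09).

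Erbb3, the partner of Erbb2 in neuregulin signalling, differed most between the control mice. Its values were 7.25, 7.82 and 7.37 in PrlR+/+ 1 to 3, and 7.61, 7.57, 7.57 and 7.57 across PrlR+/- 1 to 4. The heterozygous mice lay together inside a control range of which PrlR+/+ 2 formed the top and PrlR+/+ 1 the bottom. The difference was 0.10 ± 0.13 (SE), with an interval from -0.20 to 0.40 (limma, adjusted p = 0.99). Without PrlR+/+ 2 it was 0.27, at an unadjusted p of 0.00507 by limma (adjusted p = 0.977), in a fit where 2.87% of all genes were under 0.05. The genotypes then did not overlap, as for 10.3% of all genes without that mouse. In the PrlR+/- mice 3 values were equal (SD 0.02, n = 4), which narrows the spread behind that unadjusted p.

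Erbb3 is expressed in many epithelia, and the mean of duct epithelium markers had its order among the controls. The mean of 9 measured duct markers was 8.63, 8.89 and 8.68 in PrlR+/+ 1 to 3, the same order as Erbb3. It lay between 8.74 and 8.87 in the PrlR+/- mice. Of the single markers only Krt7 and Epcam had that order in the controls. PrlR+/+ 2 was the highest control for most markers, but not for Krt8, and was the lowest for Cftr. Within the PrlR+/- mice 3 had the same Erbb3 value, so these mice do not show whether Erbb3 followed the marker mean. With the duct marker mean as a covariate, the Erbb3 difference was -0.02 in place of 0.10. An order of 3 mice is easily matched, and the part of duct cells in the Erbb3 values was not tested. Other cell types moved too: PrlR+/+ 2 had the highest acinar marker mean of the controls (12.18 against 11.88 and 11.77) and also the highest stellate and endothelial means, and the lowest beta cell, other endocrine and myeloid means. With the acinar or stellate marker mean as a covariate the Erbb3 difference was 0.05. Markers of Schwann cells and neurons, where Erbb3 is the neuregulin receptor of Schwann cells, had means over 6 genes of 7.02 to 7.05 in the controls and 6.98 to 7.16 in the heterozygous mice. PrlR+/+ 2 did not stand out in that mean, but the single markers were split. Among the controls it was highest for Sox10, S100b, Gfap and Nefm, and lowest for Ngfr and Uchl1. Only Sox10 had the order of Erbb3 there. The part of Schwann cells in the Erbb3 values was likewise not tested.

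**Figure D2:**
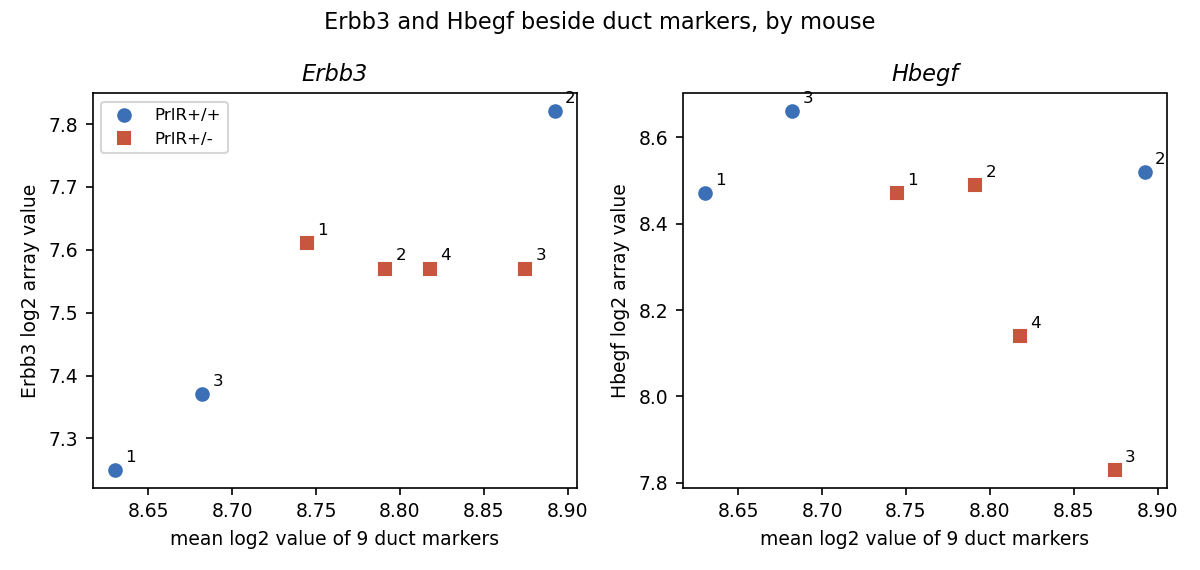
Log2 array value of Erbb3 (left) and Hbegf (right) against the mean log2 value of 9 duct cell markers, with a point for each mouse (blue circles PrlR+/+, red squares PrlR+/-, numbered as in the labels). Erbb3 is highest in PrlR+/+ 2, the mouse with the highest duct marker mean (8.89), whereas Hbegf is lowest in PrlR+/- 3, which has a duct marker mean of 8.87.

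Among the ligands, Egf read 7.83, 8.07 and 7.72 in PrlR+/+ 1 to 3, and 7.83, 7.83, 7.83 and 7.77 across PrlR+/- 1 to 4. As for Erbb3, PrlR+/+ 2 was the highest mouse and the heterozygous mice lay within the control range. The difference was -0.06 ± 0.09 (SE), with an interval from -0.26 to 0.15 (limma, adjusted p = 0.99), and 0.04 without PrlR+/+ 2.

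Btc encodes betacellulin, a ligand of Egfr and Erbb4 first isolated from beta tumour cells. It was at 6.04, 6.00 and 6.04 in PrlR+/+ 1 to 3, and at 6.11, 6.04, 6.04 and 6.04 across PrlR+/- 1 to 4, a difference of 0.03 ± 0.05 (SE). Ereg encodes epiregulin, another ligand of Egfr and Erbb4. It was at 5.06, 5.06 and 5.11 in PrlR+/+ 1 to 3, and at 4.95, 5.06, 5.05 and 5.26 across PrlR+/- 1 to 4, a difference of 0.00 ± 0.08 (SE). For both, limma's adjusted p was at least 0.99. Btc varied less over the 7 mice than nearly every gene, since only 2.78% of genes had a smaller SD.

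Equal values on several arrays were common in the deposited table, which has 2 decimals. Their source was not tested, and equal values need not mean equal transcript levels. Btc had the same value on 5 of 7 arrays, as at least that many did for 5.23% of all genes, and Egf on 4 of 7, as for 15.1% of all genes. Egfr, Erbb3 and Ereg had 3 equal values each. In PrlR+/- mice Erbb3, Egf and Btc each had 3 equal values, with SDs of 0.02, 0.03 and 0.04 (n = 4). Such ties may make intervals too narrow, also for Erbb3 and Egf, which were not among the dim members.

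Epgn, Ereg, Areg and Btc are consecutive protein-coding genes on 1 mouse chromosome (RefSeq, assembly GRCm38.p6). Epgn encodes epigen, a further Egfr ligand, and is no member. The measured genes of this cluster had differences of 0.10 ± 0.15 (Epgn), 0.00 ± 0.08 (Ereg) and 0.03 ± 0.05 (Btc), each with its SE.

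Hbegf, the heparin-binding ligand of Egfr and Erbb4 that promotes beta cell replication in rodent islets, had the lowest difference of the measured members. Its log2 value was 8.47, 8.52 and 8.66 in PrlR+/+ 1 to 3, and 8.47, 8.49, 7.83 and 8.14 across PrlR+/- 1 to 4. PrlR+/- 3 and PrlR+/- 4 were lower than every control, whereas PrlR+/- 1 and PrlR+/- 2 lay at the level of PrlR+/+ 1, so the groups overlapped. The means were 8.23 ± 0.31 (SD, n = 4) and 8.55 ± 0.10 (SD, n = 3), a ratio of 0.802. The difference of -0.32 ± 0.16 (SE) did not pass (limma, unadjusted p = 0.0936, adjusted p = 0.99). A 2-sided exact permutation test of the group means returned p = 0.2, and 0.0286 is the smallest that 3 against 4 mice allow.

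The Hbegf difference was negative in all 20 alternative fits, but not all of these could change it. Fits that altered only the variance model, the filter or the probe set rule had to repeat the main value of -0.32. The replicate block repeated the difference without PrlR+/- 4, -0.29, since no control has that number. As each mouse was left out the difference ranged from -0.40 to -0.18. The smallest of these, -0.18, was the value without PrlR+/- 3, the mouse of lowest Hbegf. Without PrlR+/- 2 the difference was -0.40 at an unadjusted p of 0.0488 by limma (adjusted p = 0.865). In that fit 3.98% of all genes were under 0.05. With the stellate marker mean as a covariate it was -0.47 at an unadjusted p of 0.0225 by limma (adjusted p = 0.921). There 4.71% of all genes were under 0.05. Across the 7 mice 91.7% of genes had a smaller SD than Hbegf.

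**Figure D3:**
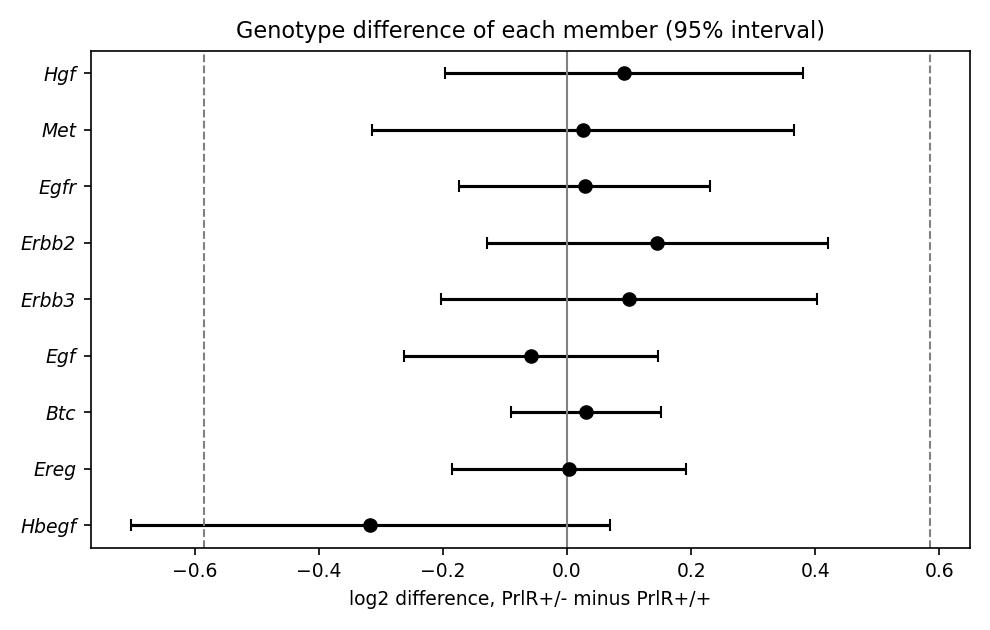
Log2 difference, PrlR+/- minus PrlR+/+ (horizontal axis), of each measured member with its 95% interval from limma; dashed lines mark 1.5-fold in either direction. All 9 intervals include 0, and that of Hbegf reaches furthest down, to -0.70.

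The genes whose values over the 7 mice were most like those of Hbegf were sought among 1403 genes with an SD of at least 0.3. They were Cldn8, a tight-junction claudin (Pearson r = 0.93), Srsf6, a splicing factor (r = 0.91), and Alg5, an enzyme of N-glycan assembly (r = 0.91). At each point the genes share an array and an RNA sample, and these r values, over 7 mice, were picked as the highest of many, so no test was made. Cldn8 was at 12.18, 11.33 and 12.17 in PrlR+/+ 1 to 3, and at 11.55, 11.39, 9.74 and 10.21 across PrlR+/- 1 to 4. All 3 genes were lowest in PrlR+/- 3 and PrlR+/- 4, the mice with the lowest Hbegf. Of the 9 beta cell markers, 2 were likewise lowest in these mice and 2 were highest there, named after their values were seen. Slc2a2, the glucose transporter gene, was at 11.94 and 11.31 in PrlR+/- 3 and PrlR+/- 4, against 12.16 to 12.39 in the others, and Slc30a8, a zinc transporter gene, was the other low marker, whereas Iapp and Nkx6-1 were highest there. The mean of these markers was lowest in PrlR+/- 4 (11.92), with 12.12 in PrlR+/- 3 and 12.05 to 12.21 in the other mice. The part of beta cell content in the Hbegf values was not tested.

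**Figure D4:**
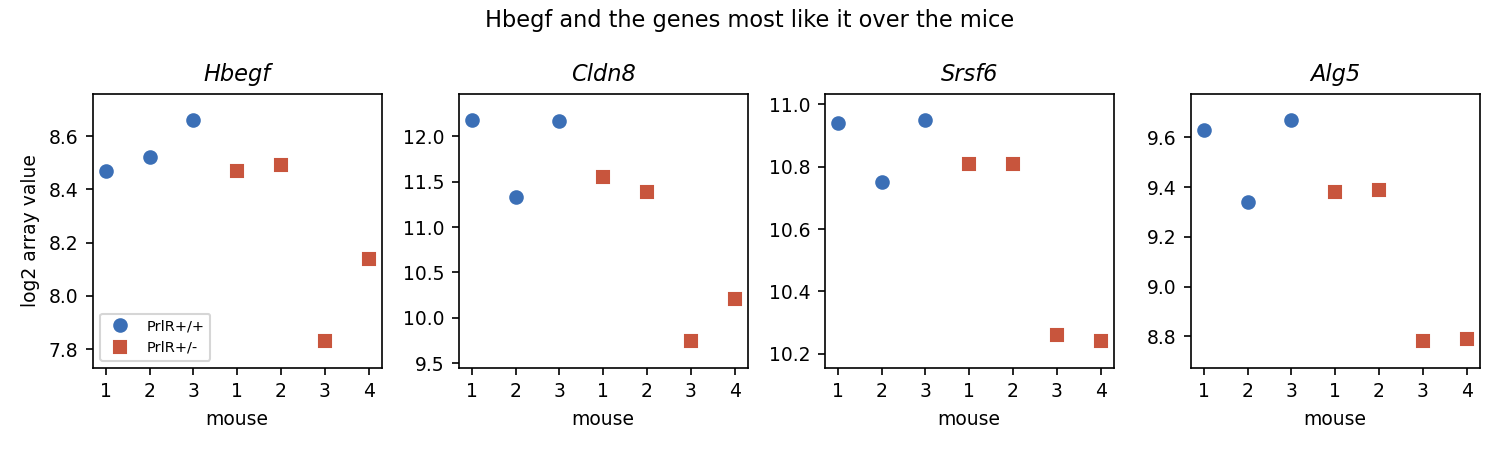
Log2 array values (vertical axes, each on its own range) of Hbegf and the 3 genes most like it over the mice, with a point for each mouse (blue circles PrlR+/+ 1 to 3, red squares PrlR+/- 1 to 4). In all 4 panels PrlR+/- 3 and PrlR+/- 4 are the lowest mice; Hbegf is at 7.83 and 8.14 there.

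PrlR+/- 3 held the highest Met and Egfr and the lowest Hbegf, PrlR+/+ 2 the highest Erbb3 and Egf, PrlR+/- 1 the highest Hgf and Btc, and PrlR+/- 4 the highest Erbb2 and Ereg. Averaged over the 9 members, the controls ran from 7.04 to 7.20 and the heterozygous mice from 7.09 to 7.19.

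Other genes of the pathway were taken from lists made by role. Of 76 measured genes, 0 passed over all genes (limma, adjusted p under 0.05), 1 was higher and 0 lower in PrlR+/- at an unadjusted p under 0.05 (2.2% of all genes in either direction), and the median difference was 0.01. The groups did not overlap for 2 of them, Gab1 and Etv1, beside 2.24% of all genes. In each role the 2 genes of smallest unadjusted p by limma are described, none of which passed.

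The remaining receptors and ligands differed little. Of 6 other EGF family ligands, 4 had higher and 2 lower means in PrlR+/-, with a median of 0.03, and the neuregulins Nrg3 and Nrg2 were at 0.10 ± 0.06 and 0.05 ± 0.08 (SE). Erbb4, the neuregulin and betacellulin receptor, read 5.36 on every control array and on 2 of the PrlR+/- arrays, with 5.45 in PrlR+/- 2 and 5.40 in PrlR+/- 4. Mst1 and its receptor Mst1r, the nearest relatives of Hgf and Met, were at 0.05 ± 0.10 and 0.00 ± 0.09.

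Genes that act outside the cell showed small differences of either sign. Of 9 proteases that activate pro-HGF and their inhibitors, 6 had higher and 3 lower means, with a median of 0.04. St14, which encodes matriptase, was at 8.97, 9.36 and 9.03 in PrlR+/+ 1 to 3, and at 9.22, 9.22, 9.51 and 9.60 across PrlR+/- 1 to 4. PrlR+/+ 2 stood above PrlR+/- 1 and PrlR+/- 2, so the groups overlapped, and the difference was 0.27 ± 0.14 (SE; limma, unadjusted p = 0.0886). Spint2, an inhibitor of HGF-activating proteases, was at 0.10 ± 0.08. Of 7 Met partners at the cell surface 5 had higher means, with the heparan sulphate carrier Sdc1 at 0.15 ± 0.08 and the integrin Itgb4 at 0.19 ± 0.13. Of 8 genes for proteases that shed EGF family ligands, or for their partners, 4 had higher and 4 lower means. The metalloproteases Adam9 and Adam10 were at -0.19 ± 0.12 and -0.14 ± 0.08.

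Inside the cell the pattern was equally mixed. The median was 0.01 among 11 genes for proteins that restrain these receptors or are related to such proteins. The transmembrane proteins Lrig3 and Lrig2 were at 0.14 ± 0.08 and -0.14 ± 0.09 (SE). Among 12 measured genes of adaptors, RAS and the ERK cascade the median was -0.02. Gab1, the docking protein of Met, was at 8.25, 8.22 and 8.28 in PrlR+/+ 1 to 3, and at 8.29, 8.36, 8.40 and 8.44 across PrlR+/- 1 to 4. Every heterozygous mouse was thus above every control, by as little as 0.01 between the nearest pair, and the difference of 0.12 ± 0.06 did not pass (limma, unadjusted p = 0.073). The adaptor Shc1 was at -0.23 ± 0.13.

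For PI3 kinase and AKT, 1 of 7 measured genes had a higher and 6 a lower mean in PrlR+/-, with a median of -0.06. The catalytic subunit Pik3cb was at -0.26 ± 0.13 and the regulatory subunit Pik3r1 at -0.19 ± 0.10 (SE; limma, unadjusted p = 0.0838 and 0.106). Pik3cb read 8.22, 8.10 and 8.21 in PrlR+/+ 1 to 3, and 8.06, 8.17, 7.79 and 7.64 across PrlR+/- 1 to 4. As for Hbegf, PrlR+/- 3 and PrlR+/- 4 were its lowest mice.

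Genes induced by ERK signalling, among them its feedback inhibitors, differed more, as a list mean, between mice of a genotype than between the genotypes. Their mean over 13 genes was 7.88, 8.20 and 7.88 in PrlR+/+ 1 to 3, and 7.88, 7.88, 8.07 and 8.13 across PrlR+/- 1 to 4. PrlR+/+ 2 and PrlR+/- 3 and 4 were thus high and the 4 other mice alike, so each genotype held both kinds. Etv1, an ETS transcription factor, was the single pathway gene with an unadjusted p under 0.05, at 0.17 ± 0.07 (SE; limma, unadjusted p = 0.0383, adjusted p = 0.99). Ier3, an immediate early gene, was at -0.17 ± 0.12.

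These 3 mice lay above all others for 4 of the 13 genes, the feedback inhibitor genes Spry1, Spry2 and Spred2 and the ETS factor gene Etv5, named after their values were seen. Spred2 was at 9.75, 9.87 and 10.18 in PrlR+/+ 2, PrlR+/- 3 and PrlR+/- 4, against 9.31 to 9.41 in the others. Dusp4, which encodes an ERK phosphatase, was at 8.44 in PrlR+/+ 2, against 6.82 to 7.36 in all other mice, and Dusp6, another, at 8.79, against at most 8.35. Whether the high Erbb3 and Egf values and duct marker mean of PrlR+/+ 2 had a part in its ERK-induced genes was not tested.

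**Figure D5:**
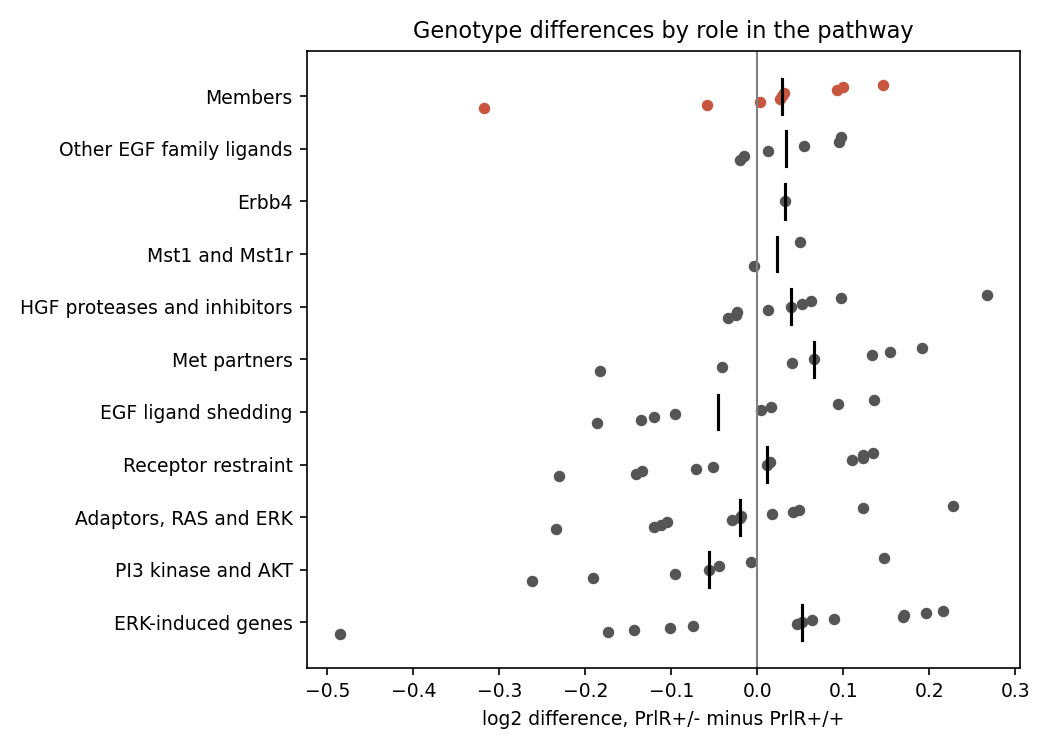
Log2 difference, PrlR+/- minus PrlR+/+ (horizontal axis), of each measured gene by role, members in red and other pathway genes in grey, with a black line at each median. Every median lies between -0.06 and 0.07, and the lowest point of the 76 pathway genes is at -0.49.

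The prolactin receptor signals in part through STAT5, which binds the palindrome TTCNNNGAA. Promoter windows from 250 bases before to 50 bases after the start were held for 7 of the 10 members (9 windows, RefSeq, GRCm38.p6). These members were Egf, Hgf, Areg, Btc, Met, Egfr and Erbb2. No window was held for Hbegf, Erbb3 or Ereg, so their promoters were not searched. The motif occurred in 0 of these 9 windows and in 8.3% of all 32851 windows. This says only that these letters are not in the windows searched, which leave out distal elements. So few windows cannot be set against the share over all windows.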

How the data were processed

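Islet RNA of 7 mice was measured on 1 Affymetrix array each. The authors deposited a value for each probe set, 1.73 to 13.97, whose size shows a log2 scale, and Affymetrix Expression Console 1.2.0.20 made it, per the submitters' processing notes. The way of background correction, normalization and summarization, and any batch, is not given in the sources used here. Genotypes come from the source labels.

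Of 35556 probe sets, 21789 had 1 symbol in the platform annotation, 1621 several and 12146 none; the probe set of highest mean stood for a gene, giving 19938 genes. Differences, moderated standard errors and intervals come from limma 3.58.1 (lmFit, eBayes; R 4.3.3), fitted on all genes without a filter, 2-sided, Benjamini-Hochberg adjusted. Summaries used pandas 2.3.3 and scipy 1.17.1. The steps were tested on simulated data. Members, lists and tests were chosen with earlier results of these data known. Named are all members, the 2 genes of smallest unadjusted p in each role list and the 3 genes most like the member of largest SD. Alternatives were other variance models, array weights, 2 scalings, 2 filters on dim genes, other probe set rules, marker covariates, a block for the replicate number, each mouse left out in turn, and an adjusted p under 0.1.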

Additional observations from a re-analysis of the deposited data

Results flagged for a closer look

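In 5 of 50 groups of PrlR+/- values, 1 mouse stood apart from the others by more than the 95% limit of Dixon's test, and chance gives about 1 in 20. In 3 of them the other mice had equal values, so a small gap was enough: Erbb3 at 7.61 in PrlR+/- 1 against 7.57 in the others, Egf at 7.77 in PrlR+/- 4 against 7.83, and Btc at 6.11 in PrlR+/- 1 against 6.04. Lrig2 was at 8.30 in PrlR+/- 4, against 8.57 to 8.61 in the other PrlR+/- mice. The mean of the 9 members was 7.19 in PrlR+/- 1, against 7.09 to 7.11.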

How the results depend on the processing

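Under 20 alternative fits and an adjusted p under 0.1, limma called 0 of all genes and 0 members; the smallest adjusted p of any gene was 0.534 and of a member 0.818, while 247 to 1132 genes had an unadjusted p under 0.05. The median difference of the members moved by less than the SD of their mean between mice, 0.06. The number of members with an unadjusted p under 0.05 was 1 in place of 0 with array weights (Erbb2) and with the stellate marker mean as a covariate (Hbegf). In these fits 5.68% and 4.71% of all genes were under that level. As each mouse was left out the number was 0 to 1. It was 1 without PrlR+/+ 2 (Erbb3, 2.87% of all genes) or PrlR+/- 2 (Hbegf, 3.98% of all genes). The number without overlap was 0 to 1 as each mouse was left out: Hbegf without PrlR+/+ 1, where 6.71% of all genes had none, and Erbb3 without PrlR+/+ 2. Of 172 member differences, 15 had the other sign, all of them small. Fits that altered only the variance model, the filter or the probe set rule repeated the main difference and could not change a sign. The replicate block repeated the differences found without the heterozygous mouse that has no control of its number. The 172 therefore cannot serve as a count of separate checks on the sign. With array weights Egf was at 0.022 and Ereg at -0.0752. With the duct marker mean as a covariate Met was at -0.051, Erbb3 at -0.0232 and Ereg at -0.0054. As each mouse was left out, differences ranged from -0.135 to 0.04 for Egf, -0.0567 to 0.0467 for Ereg, -0.0825 to 0.0967 for Met, -0.015 to 0.27 for Erbb3, -0.0167 to 0.16 for Hgf and -0.04 to 0.0733 for Egfr. With the replicate number as a block Ereg was at -0.0567. Same-numbered mice correlated at 0.09, -0.386 and -0.029 in their deviations from the genotype means. Differently numbered mice correlated at -0.238 to 0.398, so these values cannot tell whether the numbers pair the mice. The block changed no call. Filters on dim genes left no value for Hgf, Erbb2, Btc and Ereg. The cause of these shifts was not tested.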
